A study of Homo sapiens with 29 samples.

Results

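EndoC-βH1 cells kept in medium from empty-vector HEK293 cells were compared between the batches labelled 3 and 1. EndoC-βH1 is a human pancreatic β-cell line derived from fetal pancreas that makes, stores and secretes insulin, and HEK293 is a human embryonic kidney line. Stable HEK293 lines carrying the empty vector (EV) were kept for 3 hours in β-cell medium, in which the β-cells then grew for 10 days after it had been filtered and set to equal protein, with fresh medium each day. The 6 libraries compared are 3 EV libraries of batch 3 and 3 EV libraries of batch 1, of 29 libraries in the series. The others, used here only for comparison, are 3 EV libraries of batch 2 and the libraries grown in medium from HEK293 cells overexpressing wild-type CEL (WT) or mutant CEL (MUT), where CEL is carboxyl ester lipase, a digestive enzyme. WT and MUT each have 4 libraries in batch 1, 3 in batch 2 and 3 in batch 3, and those of batch 2 entered only the scaling over all 29 libraries and fits that used every library. All of these cells had 10 days of HEK293-conditioned medium, so no group shows the line in plain medium. EV cells received no CEL from a vector in any batch, and the comparison answers how far the same nominal condition differed between 2 batches of the study. The labels name the batches and do not say what set them apart, such as passage, serum, dates or reagents, and anything that differed between them cannot be told apart here.

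Polyadenylated RNA was sequenced. The EV libraries held 27.0, 36.7 and 36.7 M estimated counts in batch 1 (libraries 2, 3 and 4, as numbered in the labels) and 31.8, 35.1 and 32.9 M in batch 3 (libraries 1, 2 and 3). Values are given as CPM (counts-per-million) after TMM scaling, in that library order, and log2 fold changes are batch 3 over batch 1 with their standard errors. A gene passed where the Benjamini-Hochberg adjusted p of edgeR's quasi-likelihood test, over all genes tested, was under 0.05. Nothing in the labels says that the libraries of a group came from separate cultures, so p-values rest on the variation among these libraries, which may be technical only. The β-cell label held in all 6 libraries: INS was read at 8980 to 13370 CPM, CHGA at 7478 to 9195 and PDX1 at 239 to 509. Of the 16 acinar markers 9 to 11 were at 0 in each of these libraries, PRSS1, PNLIP and AMY2A among them.

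A pancreatic β-cell joins glucose uptake and oxidation to the release of insulin stored in secretory granules. Glucose is phosphorylated and oxidised, mitochondria make ATP from it, and ATP closes KATP channels, which opens calcium channels and empties granules. The granules also hold amylin (IAPP), granins and the enzymes that cut proinsulin, and a set of transcription factors keeps these genes on while progenitor genes and those of other islet cells are held low. Sterol synthesis, protein folding in the endoplasmic reticulum and growth-factor signalling adjust to the supply of lipids, hormone load and serum.

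The batches differed at many genes. Of 20318 genes tested, 9993 passed (49.2%), 5048 of them higher in batch 3 (24.8%) and 4945 lower (24.3%). Most differences were small: 1003 genes were more than 1.5-fold higher (4.94%) and 1693 more than 1.5-fold lower (8.33%), while 394 rose and 634 fell by more than 2-fold. The median log2 fold change over all genes tested was -0.01. Among the genes that passed, 97.8% had no overlap between the 3 libraries of batch 3 and the 3 of batch 1, against 58.1% of all genes tested. When tested against a minimum fold of 1.2 instead of 0 change, 4122 genes passed. A list of well-expressed genes passes more readily than these background shares, which count weakly expressed genes too.

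The same batches in the other media gave similar pictures. Of the 20510 genes tested in WT medium 9105 passed (44.4%), and of 20212 in MUT medium 8555 passed (42.3%). These contrasts share no library with the EV contrast, but they share the batches. Pearson's r of the log2 fold changes, over 19784 genes tested in all 3 media (genes are no independent replicates), was 0.814 between EV and WT and 0.683 between EV and MUT. Of 9907 EV-called genes tested in all media, 8627 (87.1%) had the EV sign in both other media, against 69.5% of all genes tested, and 5397 also passed in both. A direct test of the EV difference against the mean of the WT and MUT differences called 0 of 21496 genes (0%) by edgeR, and 3288 genes had an unadjusted p below 0.05. That count depended on the tool: DESeq2 called 342 genes and limma voom with quality weights 1798.

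**Figure D1:**
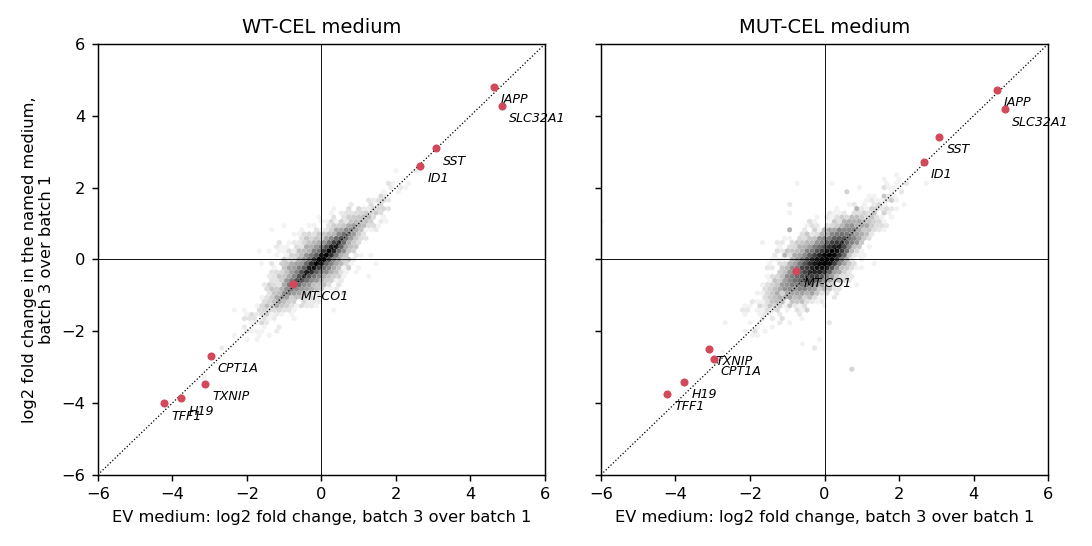
Log2 fold change of batch 3 over batch 1 in EV medium (horizontal axis) against that in WT-CEL medium (left) and MUT-CEL medium (right), for 19784 genes. Grey cells are shaded by the log number of genes, values beyond 6 are drawn at the edge, red points are named genes and the dotted line marks equal values. IAPP lies close to the line in both panels, at 4.62 in EV, 4.81 in WT and 4.72 in MUT. TXNIP lies further from it, with a smaller fall in MUT-CEL than in EV medium.

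Batch 2 did not simply lie in the middle. Of the 9993 EV genes that passed, its EV mean was between those of batches 1 and 3 for 3918 (39.2%), beyond batch 3 for 5013 and beyond batch 1 for 1062. These positions are a description, since no test of batch 2 was made.

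Hormones and granule proteins were mostly higher in batch 3. All 15 listed genes were tested, 13 rose and 1 fell, with a median log2 fold change of 0.60, and the medians in WT and MUT medium were 0.61 and 0.65. IAPP, which encodes amylin, the peptide secreted with insulin, stood at 5.60, 6.19 and 6.36 CPM in batch 1 and at 148, 148 and 157 CPM in batch 3. Its log2 fold change was 4.62 ± 0.06 (adjusted p = 1.98e-11, edgeR), and the batch 2 libraries stood between, at 75.5 to 85.0 CPM. The batch 3 libraries were all far above those of batch 1 in this gene.

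INS moved little. It was read at 12130, 10110 and 8980 CPM in batch 1 and at 13370, 13150 and 12120 CPM in batch 3, so that the lowest batch 3 library lay under the highest of batch 1. The log2 fold change was 0.30 ± 0.09 (adjusted p = 0.024, edgeR), and the call was lost without batch 1 library 4 (adjusted p = 0.088), without batch 3 library 1 (0.082) or 2 (0.069), and with DESeq2 (0.058). INS and IAPP are secreted together, and their mRNA thus differed between the batches by very different factors.

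Other granule genes rose by less than IAPP. PCSK1 and PCSK2, the convertases that cut proinsulin, rose by 0.82 ± 0.05 and 0.75 ± 0.04 on the log2 scale. PCSK2 was 412, 412 and 428 CPM in batch 1 and 708, 710 and 696 CPM in batch 3, with no overlap. VGF (1.15 ± 0.07) and SCG2 (0.69 ± 0.04), which encode granin-type cargo, rose too, as did UCN3 (0.91 ± 0.05), a peptide of mature β-cells. SCG5, a chaperone of PCSK2, was the exception that fell, by 0.55 ± 0.07 on the log2 scale. CHGA, which encodes chromogranin A, had 7696, 9195 and 8963 CPM in batch 1 against 8201, 7478 and 7739 CPM in batch 3, and the groups overlapped (log2 fold change -0.15 ± 0.07, adjusted p = 0.091, edgeR).

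Somatostatin, the hormone of δ-cells, was also higher. SST was 15.2, 16.4 and 14.3 CPM in batch 1 and 135, 130 and 126 CPM in batch 3, a log2 fold change of 3.08 ± 0.06 (adjusted p = 6.29e-10, edgeR). Batch 2 had 143 to 152 CPM. The list of 10 δ-, PP- and ε-cell markers had 9 tested, of which 5 rose and 2 fell. GCG, the α-cell hormone glucagon, stayed near 1 CPM in both batches (0.98 to 1.36 and 0.97 to 1.66), with a log2 fold change of 0.13 ± 0.24 (adjusted p = 0.68, edgeR).

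The upstream sequences of SST and IAPP are given because the difference between the batches was large in both of these hormone genes. They are taken from RefSeq on GRCh38.p14, 5′ to 3′ on the gene's strand and ending at the base before the annotated start. In SST the capitals mark the cAMP response element letters TGACGTCA, and in IAPP the homeodomain core TAAT, searched on both strands (ATTA is its reverse, and overlapping matches run together). SST is printed from chr3:187670395-187670494 (minus strand) and IAPP from chr12:21372702-21372901 (plus strand), the downstream of its 2 annotated starts.
SST: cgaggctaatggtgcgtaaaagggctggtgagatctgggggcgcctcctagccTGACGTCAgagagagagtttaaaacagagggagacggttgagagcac
IAPP: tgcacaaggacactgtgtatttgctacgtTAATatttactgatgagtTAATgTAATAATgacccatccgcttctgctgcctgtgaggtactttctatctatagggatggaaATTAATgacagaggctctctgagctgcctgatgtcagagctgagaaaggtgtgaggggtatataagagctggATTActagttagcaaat
The element in SST starts at base -47 and the same letters occur in 1.85% of 35116 annotated windows of 300 bases. TAAT matched at 7 positions in IAPP and occurs in 50.2% of such windows. A match is a description of the letters and not a binding site.

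**Figure D2:**
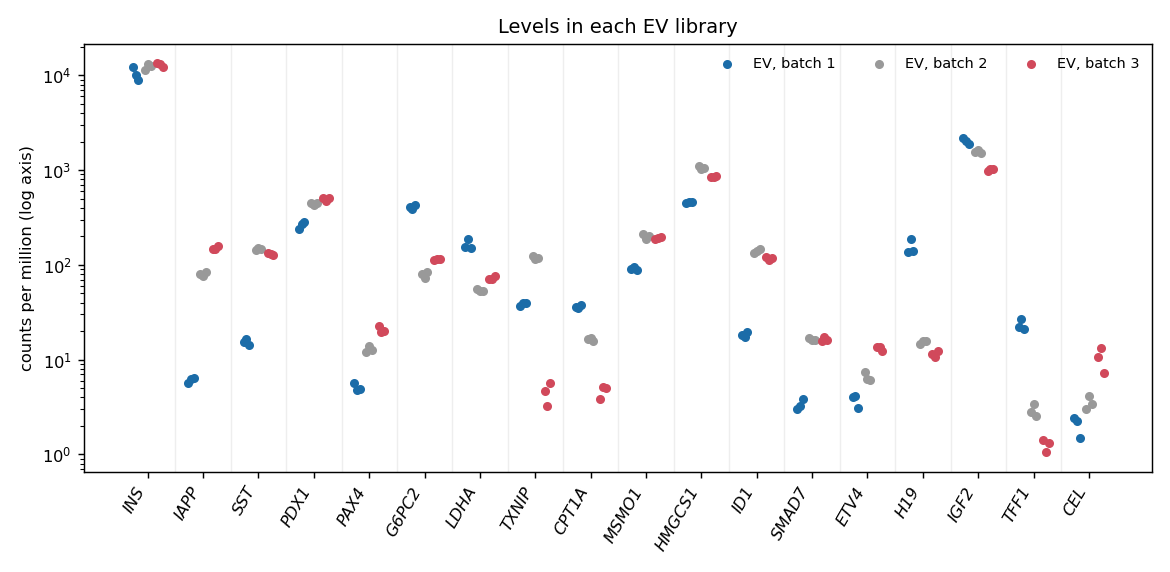
CPM (log axis) of named genes in each EV library of batch 1 (blue), batch 2 (grey) and batch 3 (red), one point per library. IAPP, SST, PAX4, ID1 and SMAD7 lie higher in batch 3 than in batch 1, TXNIP, CPT1A, H19 and TFF1 lower, and TXNIP is highest in batch 2.

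Transcription factors of the β-cell moved in both directions. Of 25 tested, 10 rose and 8 fell, and the median log2 fold change was -0.02. PDX1, the factor that activates INS and IAPP, was 239, 267 and 285 CPM in batch 1 and 503, 476 and 509 CPM in batch 3, with no overlap (0.90 ± 0.06, adjusted p = 1.78e-06, edgeR). ISL1 rose by 0.64 ± 0.04, RFX3 by 0.48 ± 0.05 and MAFA by 0.44 ± 0.05 on the log2 scale. NKX6-1 (0.13 ± 0.04) rose less, and its call was lost when batch 1 library 2 or any single batch 3 library was left out (adjusted p from 0.053 to 0.090). PAX6 (-0.01 ± 0.04, adjusted p = 0.77) and NEUROD1 (0.10 ± 0.05, adjusted p = 0.11) did not pass. MLXIPL, which encodes the glucose-sensing factor ChREBP, fell by 0.50 ± 0.05 on the log2 scale.

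Factors of endocrine precursors were mostly higher. Of 16 tested genes of endocrine progenitors 12 rose and 0 fell (median 0.55, with 0.42 in WT and 0.46 in MUT). PAX4, a factor of β-cell precursors, is not on this list but among the β-cell transcription factors above, where its log2 fold change was the highest. It was 5.64, 4.78 and 4.86 CPM in batch 1 and 22.7, 19.3 and 20.1 CPM in batch 3 (2.02 ± 0.09, adjusted p = 1.89e-07, edgeR). Of the progenitor list, FEV, a factor of endocrine precursors, was under 1 CPM in batch 1 and 4.75 to 5.53 CPM in batch 3 (2.70 ± 0.14). SOX4 rose by 0.57 ± 0.04 on the log2 scale. The α-cell markers did not move as a group: 5 of 11 rose and 4 fell. TTR, the thyroid hormone carrier transthyretin, rose by 1.11 ± 0.07 and DPP4, a dipeptidase of the cell surface, by 0.93 ± 0.05. The homeobox gene IRX2 fell by 1.29 ± 0.09 on the log2 scale. RBP4, the retinol carrier, which is on the list of δ-, PP- and ε-cell markers, fell by 0.64 ± 0.07.

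Genes of glucose sensing were split, with 5 higher and 5 lower of 14 tested. G6PC2, the islet glucose-6-phosphatase subunit, was 412, 387 and 425 CPM in batch 1 and 114, 115 and 116 CPM in batch 3 (-1.84 ± 0.04, adjusted p = 4.02e-09, edgeR). PKLR, a pyruvate kinase, rose by 0.77 ± 0.08 on the log2 scale. SLC2A2, a glucose transporter, was read at 3.96 to 5.46 CPM in batch 1 and 4.56 to 5.19 CPM in batch 3 and did not pass. The KATP channel genes ABCC8 (-0.14 ± 0.05) and KCNJ11 (-0.17 ± 0.05) passed narrowly. With offsets for GC content and length ABCC8 turned to 0.07 and KCNJ11 to 0, and single libraries decided both calls. ABCC8 lost its call (adjusted p from 0.064 to 0.153) without batch 1 library 2 or 4 or any single batch 3 library, and KCNJ11 (0.052 to 0.092) without batch 1 library 3 or 4 or batch 3 library 2 or 3.

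Glycolysis genes and hypoxia targets fell more often than they rose. Of 18 tested glycolysis genes 9 fell and 4 rose (median -0.18), and of 18 tested hypoxia targets 9 fell and 3 rose (median -0.30, with -0.19 in WT and -0.14 in MUT). LDHA, which makes lactate, was 154, 189 and 151 CPM in batch 1 and 70.7, 70.9 and 76.4 CPM in batch 3 (-1.19 ± 0.08, adjusted p = 1.52e-06, edgeR). PFKP fell by 0.90 ± 0.07, TPI1 by 0.64 ± 0.06 and ENO2 by 0.61 ± 0.04 on the log2 scale, while GAPDH did not pass (-0.07 ± 0.05). LDHA is also on the list of genes kept low in mature β-cells, where it had the lowest log2 fold change: of 13 tested 6 rose and 2 fell (median 0.25, with 0.34 in WT and 0.21 in MUT). CXCL12, a chemokine on that list, rose by 1.06 ± 0.05. Among the hypoxia targets NDRG1, a stress-response gene, fell by 1.48 ± 0.12 and VEGFA, the endothelial growth factor, by 0.39 ± 0.04 on the log2 scale. DDIT4, an inhibitor of mTOR signalling that stress induces, is not on the hypoxia list but on that of the PERK and ATF4 arm, given below. It was 22.1, 25.9 and 20.9 CPM in batch 1 and 6.56, 6.27 and 7.49 CPM in batch 3 (-1.77 ± 0.10). BHLHE40, a repressor of the circadian clock that also responds to hypoxia, fell by 2.36 ± 0.18 on the log2 scale, and 11 of 19 tested clock genes fell while 6 rose.

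TXNIP, an arrestin-family inhibitor of thioredoxin that glucose induces through ChREBP, differed in every batch. It was 36.5, 39.7 and 39.3 CPM in batch 1, 125, 116 and 118 CPM in batch 2 and 4.63, 3.23 and 5.63 CPM in batch 3. Batch 3 was thus the lowest and batch 2 the highest, with no overlap, and the batch 3 difference from batch 1 was -3.11 ± 0.13 on the log2 scale (adjusted p = 1.15e-07, edgeR), -3.48 in WT and -2.49 in MUT medium. ARRDC4, its paralog with the same kind of glucose response, kept the same order: 49.5 to 52.7 CPM in batch 1, 82.9 to 90.2 CPM in batch 2 and 33.3 to 38.1 CPM in batch 3 (-0.55 ± 0.06). The wider list of glucose-responsive ChREBP targets did not go one way, with 8 lower and 6 higher of 15 tested.

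Both upstream sequences are given since the genes share a known kind of element, the carbohydrate response element, which holds a pair of E-box-like stretches. Capitals mark CACGNG, searched on both strands, where N is any base and overlapping matches run together. TXNIP is printed from chr1:145996580-145996759 (minus strand, the upstream of 2 annotated starts) and ARRDC4 from chr15:97960483-97960702 (plus strand), from RefSeq on GRCh38.p14.
TXNIP: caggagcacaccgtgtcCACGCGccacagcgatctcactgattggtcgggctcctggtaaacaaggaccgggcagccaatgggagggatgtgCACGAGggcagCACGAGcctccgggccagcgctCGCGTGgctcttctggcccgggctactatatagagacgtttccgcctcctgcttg
ARRDC4: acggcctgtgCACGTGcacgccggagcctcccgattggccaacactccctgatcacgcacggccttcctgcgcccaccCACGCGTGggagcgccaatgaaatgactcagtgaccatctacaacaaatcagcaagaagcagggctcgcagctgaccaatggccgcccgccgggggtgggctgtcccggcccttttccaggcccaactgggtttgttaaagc
TXNIP held 4 matches and ARRDC4 3. The letters occur in 30.5% of annotated windows of 300 bases, so their presence sets these genes apart little.

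Fatty acid oxidation genes and targets of the PPAR receptors fell in 11 cases and rose in 7, of 19 tested (median -0.32). CPT1A, the enzyme that admits long-chain fatty acids to mitochondria, was 36.3, 35.3 and 37.8 CPM in batch 1 and 3.84, 5.11 and 5.02 CPM in batch 3 (-2.97 ± 0.09, adjusted p = 2.49e-08, edgeR). Batch 2 lay between at 15.6 to 16.8 CPM. PDK4, the kinase that shuts pyruvate dehydrogenase, fell by 1.60 ± 0.18, ACADVL, a very-long-chain acyl-CoA dehydrogenase, by 0.92 ± 0.05 and PLIN2, a lipid droplet coat protein, by 0.66 ± 0.04 on the log2 scale. UCP2, a mitochondrial carrier, rose by 0.76 ± 0.05. Fatty acid synthesis genes rose in 13 cases and fell in 4, of 22 tested. SCD, the stearoyl-CoA desaturase, was 1851, 2083 and 2004 CPM in batch 1 and 2872, 3038 and 2995 CPM in batch 3 (0.57 ± 0.05), and FASN did not pass (0.11 ± 0.06, adjusted p = 0.18, edgeR), while it passed with offsets for GC content and length.

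Genes of cholesterol synthesis rose as a block. Of 25 tested 22 rose and 0 fell, 12 of them by more than 1.5-fold, with medians of 0.57 in EV, 0.70 in WT and 0.48 in MUT medium. HMGCS1, the enzyme that makes HMG-CoA, was 451, 466 and 467 CPM in batch 1 and 844, 849 and 861 CPM in batch 3 (0.87 ± 0.04, adjusted p = 1.07e-07, edgeR). Later enzymes were higher as well: MSMO1, a sterol demethylase, by 1.06 ± 0.04 and SQLE, the squalene epoxidase, by 1.02 ± 0.06. ACAT2, which makes acetoacetyl-CoA and acts before HMGCS1, rose by 0.79 ± 0.04. LSS (0.12 ± 0.05, adjusted p = 0.083) and SC5D (0.10 ± 0.04, adjusted p = 0.096) did not pass. In batch 2 the summed CPM of the list was 5955 to 5987, near the 6332 to 6480 of batch 3 and above the 4280 to 4419 of batch 1.

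The window upstream of MSMO1 is given for this block. Capitals mark TCACNCCA, the core letters of the classical sterol regulatory element, searched on both strands. It is printed from chr4:165327489-165327668 (plus strand, RefSeq on GRCh38.p14).
MSMO1: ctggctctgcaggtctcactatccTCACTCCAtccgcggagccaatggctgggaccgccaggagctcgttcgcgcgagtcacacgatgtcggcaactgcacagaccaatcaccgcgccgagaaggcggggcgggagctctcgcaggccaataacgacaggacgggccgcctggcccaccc
There is 1 match, at base -156, and 3.95% of annotated windows of 300 bases hold these letters.

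Targets of the TGF-β and BMP receptors had the highest median of the lists. SMAD proteins carry the signal of these receptors to the nucleus, ID genes are direct targets, and SMAD6 and SMAD7 are inhibitors induced as feedback. Of 15 tested genes of the TGF-β, SMAD and YAP list 12 rose, 11 of them by more than 1.5-fold, and 1 fell, with medians of 1.0 in EV, 1.17 in WT and 1.05 in MUT medium. ID1 was 18.2, 17.4 and 19.8 CPM in batch 1 and 121, 114 and 117 CPM in batch 3 (2.66 ± 0.05, adjusted p = 1.14e-09, edgeR). ID3 rose by 1.65 ± 0.07, ID2 by 1.0 ± 0.04 and ID4 by 0.91 ± 0.04, though a second entry of the table holds the same values as ID3. SMAD7 was 3.02, 3.20 and 3.82 CPM in batch 1 and 15.8, 17.5 and 16.2 CPM in batch 3 (2.28 ± 0.10), and SMAD6 1.17 to 1.34 and 4.51 to 5.64 CPM (1.99 ± 0.15). The ligand gene TGFB1 was 2.17 to 2.38 CPM in batch 1 and 8.21 to 9.19 CPM in batch 3 (1.92 ± 0.11). ID1, SMAD6 and SMAD7 had no overlap between the batches, and batch 2 stood at or above batch 3 in ID1 (134 to 146 CPM) and SMAD6 (7.42 to 7.56 CPM).

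The stretch upstream of SMAD6 is shown for its SMAD palindrome, GTCTAGAC, in capitals, which reads the same on both strands. It is printed from chr15:66702176-66702235 (plus strand, RefSeq on GRCh38.p14).
SMAD6: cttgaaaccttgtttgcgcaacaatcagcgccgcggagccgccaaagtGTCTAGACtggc
The palindrome starts at base -12 and occurs in 0.202% of annotated windows of 300 bases, 71 of 35116.

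Feedback genes of the ERK pathway, which growth factors drive, rose in 11 of 14 tested cases and fell in 1, with medians of 0.79 in EV, 0.68 in WT and 0.46 in MUT medium. ETV1, ETV4 and ETV5 are ETS-family transcription factors induced by ERK. ETV4 was 4.07, 4.15 and 3.09 CPM in batch 1 and 13.6, 13.5 and 12.4 CPM in batch 3 (1.80 ± 0.12, adjusted p = 1.39e-06, edgeR). ETV1 rose by 1.90 ± 0.09 and ETV5 by 0.86 ± 0.08. DUSP6, a phosphatase that switches ERK off, rose by 1.17 ± 0.11, while DUSP5, another such phosphatase, fell by 0.49 ± 0.09 on the log2 scale.

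**Figure D3:**
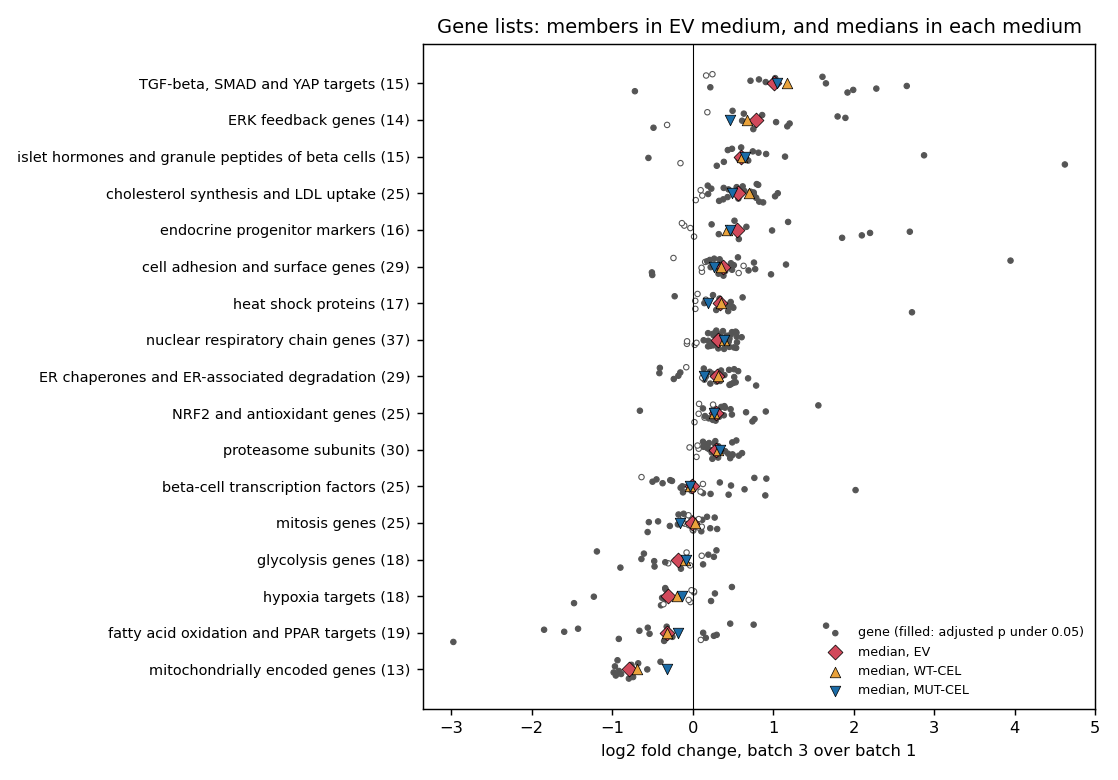
Log2 fold change of batch 3 over batch 1 in EV medium for each tested gene of 17 lists (grey circles, filled where the adjusted p was under 0.05; number tested in parentheses), with list medians in EV (red diamond), WT-CEL (orange triangle) and MUT-CEL (blue triangle) medium. The TGF-β list has a median of 1.0 in EV medium and the mitochondrially encoded genes one of -0.79.

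Respiratory chain genes of the 2 genomes moved in opposite directions. The mitochondrial genome encodes a few core subunits, and the nucleus encodes the rest. All 13 mitochondrially encoded mRNAs fell, 11 of them by more than 1.5-fold, with medians of -0.79 in EV, -0.69 in WT and -0.32 in MUT medium. MT-CO1, a subunit of cytochrome oxidase, was 23760, 19540 and 21370 CPM in batch 1 and 12340, 12840 and 13400 CPM in batch 3 (-0.76 ± 0.07, adjusted p = 1.49e-05, edgeR). MT-CO2 (-0.97 ± 0.06), MT-CYB (-0.93 ± 0.06) and MT-ND4 (-0.89 ± 0.06) fell in the same way. Together the mitochondrially encoded entries took 7.08 to 8.28% of the counts in batch 1, 4.8 to 5.25% in batch 2 and 4.29 to 4.64% in batch 3, with no overlap. Removing them before scaling left 9991 genes called.

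Of 37 tested nuclear genes of the respiratory chain 33 rose and 0 fell, with a median of 0.32 (0.39 in WT and 0.39 in MUT). COX5B, of the same enzyme as MT-CO1, was 53, 50.6 and 45.7 CPM in batch 1 and 77.5, 74.6 and 76.5 CPM in batch 3 (0.61 ± 0.05, adjusted p = 1.07e-05, edgeR). SDHB, of complex II, rose by 0.55 ± 0.04 and ATP5F1A, of the ATP synthase, by 0.47 ± 0.04. Only 1 of the 37 passed 1.5-fold, and the highest of their log2 fold changes was 0.61.

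Nuclear non-coding RNAs and histone mRNAs, whose reads depend on how a library is made, were also examined. Of 11 tested nuclear and small non-coding RNAs 0 rose and 6 fell, 4 of them by more than 1.5-fold, with medians of -0.20 in EV, -0.67 in WT and 0.10 in MUT medium. NEAT1, a nuclear RNA that builds paraspeckles, was 11.7, 10.6 and 11.6 CPM in batch 1 and 2.56, 3.01 and 3.04 CPM in batch 3 (-1.98 ± 0.10, adjusted p = 3.78e-07, edgeR). Of 11 tested replication-dependent histones, whose mRNAs mostly lack a poly(A) tail, 5 rose and 1 fell (median 0.36, with 0.21 in WT and 0.33 in MUT). The part of RNA quality or library making in the fall of the mitochondrial mRNAs was not tested.

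Genes of protein folding and turnover rose modestly. Of 29 tested ER chaperone and ER degradation genes 22 rose and 5 fell (median 0.30, with 0.31 in WT and 0.13 in MUT). HSPA5, the main ER chaperone, was 458, 480 and 464 CPM in batch 1 and 796, 821 and 818 CPM in batch 3 (0.79 ± 0.04, adjusted p = 2.50e-07, edgeR). MANF, a secreted ER stress protein, rose by 0.69 ± 0.04, PDIA3, a disulfide isomerase, by 0.50 ± 0.04 and CALR, a lectin chaperone, by 0.47 ± 0.05. The PERK and ATF4 arm of the same response was split, with 10 higher and 10 lower of 29 tested, and its factors ATF4 (0.00 ± 0.04, adjusted p = 0.98) and DDIT3 (-0.04 ± 0.06, adjusted p = 0.59) did not pass. The lowest log2 fold change of that arm was the -1.77 of DDIT4 given above, and the highest of its genes was 0.71. In DDIT3 the 6 libraries ran from 21.6 to 23.9 CPM and the batches overlapped.

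Cytosolic chaperones, proteasome subunits and antioxidant genes rose as well. Of 17 tested heat shock genes 12 rose and 1 fell (median 0.33), among them HSP90AA1 (0.49 ± 0.04) and HSPH1 (0.50 ± 0.04). Of 30 tested proteasome subunits 26 rose and 0 fell (median 0.28), with PSMA6 up by 0.57 ± 0.04 and PSMD14 by 0.54 ± 0.04. Targets of NRF2 and other antioxidant genes rose in 19 of 25 cases and fell in 1. TXN, the thioredoxin that TXNIP binds, was 19.7, 17.6 and 16.8 CPM in batch 1 and 30.7, 30.7 and 31.0 CPM in batch 3 (0.77 ± 0.06, adjusted p = 6.87e-06, edgeR). ME1, a malic enzyme that makes NADPH, rose by 1.56 ± 0.15. Cytosolic ribosomal protein genes rose in 26 of 46 cases, with a median of only 0.16.

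**Figure D4:**
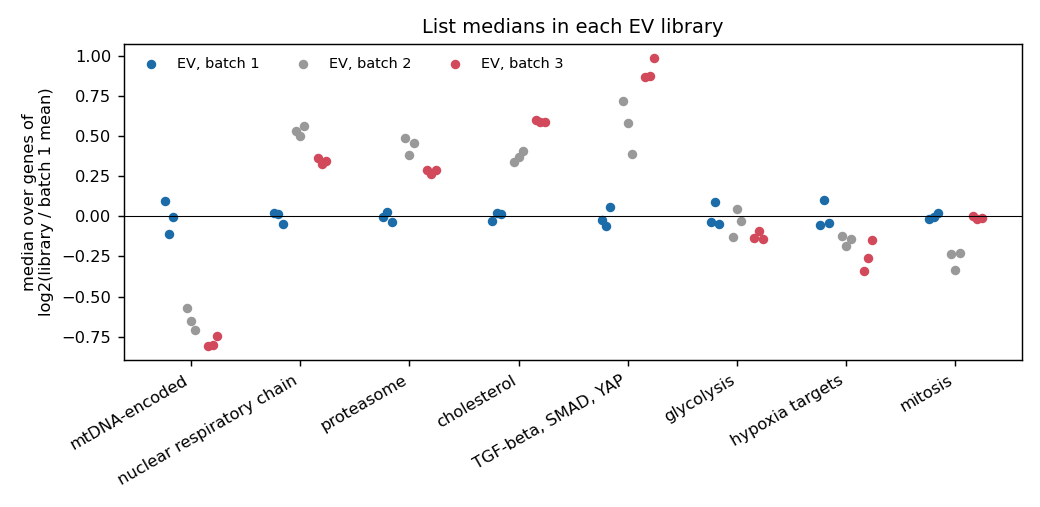
Median over the genes of a list of the log2 ratio of a library to the batch 1 mean, one point per EV library (blue, batch 1; grey, batch 2; red, batch 3; 0.1 CPM added to each value). The mitochondrially encoded genes lie between -0.81 and -0.75 in batch 3 while the nuclear respiratory chain genes lie between 0.33 and 0.37, and the mitosis list differs from batch 1 mainly in batch 2.

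Several imprinted genes at one end of chromosome 11 were lower in batch 3. Imprinted genes are read from 1 parental copy, and those of 11p15 include a non-coding RNA and a growth factor that share enhancers. H19, that non-coding RNA, was 138, 189 and 139 CPM in batch 1 and 11.5, 10.7 and 12.3 CPM in batch 3 (-3.77 ± 0.13, adjusted p = 3.27e-08, edgeR), with batch 2 at 14.8 to 15.9 CPM. A second entry of the table holds the same values as H19. IGF2, the growth factor, was 2170, 2013 and 1877 CPM in batch 1 and 984, 1028 and 1039 CPM in batch 3 (-1.0 ± 0.06). CDKN1C, a brake on the cell cycle, fell by 0.90 ± 0.05 and KCNQ1OT1, an antisense RNA, by 0.83 ± 0.16 on the log2 scale. In GENCODE coordinates (GRCh38) H19 lies at 1995176 to 2001470, IGF2 at 2129112 to 2149603, KCNQ1OT1 at 2608328 to 2699994 and CDKN1C at 2883213 to 2885773 of chromosome 11, all on the minus strand.

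Imprinted genes elsewhere were mixed. Over the whole list 9 of 16 tested rose and 5 fell. NNAT, a membrane protein gene of chromosome 20, fell by 0.90 ± 0.05 on the log2 scale. MEG3, a non-coding RNA of chromosome 14, was 2393 to 2477 CPM in batch 1 and 2268 to 2342 CPM in batch 3 and did not pass (-0.09 ± 0.04, adjusted p = 0.092, edgeR). INS lies next to IGF2 at 2159779 to 2161341 of chromosome 11 and had the small difference in the other direction given above.

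Cell cycle genes moved both ways, mostly by little. Of 27 tested replication genes 11 rose (40.7%) and 8 fell (29.6%), with a median of 0.04. Of 25 mitosis genes 6 rose (24.0%) and 7 fell (28.0%), with a median of -0.01. The mitosis shares were near those over all genes tested, 24.8% higher and 24.3% lower. MKI67, the proliferation marker, was 165, 125 and 159 CPM in batch 1 and 98.2, 107 and 101 CPM in batch 3 (-0.56 ± 0.09, adjusted p = 0.000399, edgeR). The centromere proteins CENPE and CENPF fell by 0.55 ± 0.05 and 0.43 ± 0.06, and the replication genes CCNE1 and POLE by 0.62 ± 0.06 and 0.43 ± 0.05 on the log2 scale. RRM2, which supplies deoxynucleotides, rose by 0.52 ± 0.04. TOP2A, the mitotic topoisomerase, was higher by 0.11 ± 0.04 (adjusted p = 0.042, edgeR), a call lost without batch 1 library 3 or 4 or batch 3 library 2 or 3 (adjusted p from 0.055 to 0.15). MKI67 and TOP2A, which usually rise and fall together with division, thus differed in sign.

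Genes of the cell surface and the cytoskeleton rose in most cases, 21 of 29 tested adhesion genes and 21 of 30 cytoskeletal genes, with 2 and 3 lower. VIM, which encodes the filament protein vimentin, had the highest log2 fold change of all genes tested (6.09 ± 0.63, adjusted p = 2.62e-05, edgeR), at very low levels. VIM met the low-count filter only through its batch 3 libraries, and its rank and adjusted p rest on that. It was 0, 0 and 0.027 CPM in batch 1, a single count in all, and 0.97, 1.16 and 0.66 CPM in batch 3, 94 counts in all, with 19 counts in batch 2. The ratio of batch 3 to batch 1 was 94.7, with an exact 95% interval of 16.6 to 3780 for counting error only. TUBA1A, a tubulin of neurons and endocrine cells, was 514, 520 and 493 CPM in batch 1 and 1115, 1095 and 1057 CPM in batch 3 (1.09 ± 0.04, adjusted p = 6.49e-08, edgeR). The integrin ITGA6 rose by 1.16 ± 0.08 and CD44, a hyaluronan receptor, by 0.78 ± 0.04, while the adhesion molecule NCAM1 fell by 0.51 ± 0.04 on the log2 scale. The neuronal genes STMN2 (1.02 ± 0.04) and MAP2 (0.73 ± 0.04) were higher too. In STMN2 the batch 3 libraries had 403 to 408 CPM, against 191 to 206 CPM in batch 1 and 193 to 207 CPM in batch 2, so batch 3 stood apart from both.

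Among genes of excitation and secretion, SLC30A8, the zinc transporter of insulin granules, rose by 0.75 ± 0.07 and SNAP25, of the fusion machinery, by 0.48 ± 0.04, whereas SYT7, a calcium sensor of exocytosis, fell by 0.57 ± 0.04 on the log2 scale. The exocytosis list as a whole was split, with 7 higher (31.8%) and 6 lower (27.3%) of 22 tested. Over all genes tested these shares were 24.8% and 24.3%. ADCY5, an adenylate cyclase, was 3.02 to 3.80 CPM in batch 1 and 0.48 to 0.87 CPM in batch 3 (-2.29 ± 0.21, adjusted p = 1.39e-05, edgeR), and ADCY8, another, rose by 0.93 ± 0.08. SSTR5, a receptor for somatostatin, rose by 1.60 ± 0.13. The potassium channel gene KCNK17 fell by 0.64 ± 0.05 on the log2 scale, and 11 of 23 tested voltage-gated channel genes fell while 6 rose.

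SLC32A1, the transporter that loads GABA into vesicles, had the highest log2 fold change of the genes named here with a mean of at least 5 CPM. It was 0.52, 0.38 and 0.25 CPM in batch 1 and 11.0, 12.0 and 9.51 CPM in batch 3 (4.84 ± 0.20, adjusted p = 8.14e-08, edgeR), with batch 2 at 4.08 to 5.06 CPM. GAD2, the enzyme that makes GABA, did not pass (0.01 ± 0.04) and ran from 72.2 to 78.3 CPM over the 6 libraries. HTR1D, a serotonin receptor, rose by 1.32 ± 0.10.

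Other genes with large differences fall in no single group. Among those higher in batch 3 were CPNE4, a calcium-dependent membrane-binding protein (2.63 ± 0.07), OLIG1, a transcription factor of glial precursors (2.48 ± 0.07), SAMD11 (2.18 ± 0.09), PTGER3, a prostaglandin E2 receptor (2.15 ± 0.08) and the non-coding TUNAR (2.24 ± 0.11). OLIG1 was 5.00 to 6.03 CPM in batch 1 and 30.5 to 31.4 CPM in batch 3.

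The genes with the largest falls by the rule for named genes, which asks for a mean of at least 5 CPM, were of varied kinds. TFF1, a secreted trefoil peptide on the list of ductal markers, was 22.3, 26.7 and 21.0 CPM in batch 1 and 1.41, 1.05 and 1.32 CPM in batch 3 (-4.22 ± 0.14, adjusted p = 2.83e-08, edgeR), with batch 2 at 2.53 to 3.40 CPM. FGB, a fibrinogen chain, was 28.9 to 29.3 CPM in batch 1 and 26.8 to 28.0 CPM in batch 2 but 5.59 to 5.78 CPM in batch 3 (-2.36 ± 0.06). APOA4, an apolipoprotein, fell by 2.46 ± 0.15, AOC1, a diamine oxidase, by 2.31 ± 0.08 and AGXT, a liver aminotransferase, by 2.29 ± 0.16 on the log2 scale. NXPH4, a neurexin ligand (-3.03 ± 0.15), TNNT3, a troponin (-2.52 ± 0.16) and TNFRSF14, an immune receptor (-2.07 ± 0.07), were lower as well. All 15 genes with the largest rise and all 15 with the largest fall, by the rule for named genes, had the same sign and passed in both WT and MUT medium.

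CEL, the gene that the vectors of the other groups carried into HEK293 cells, was read at low levels in the EV cells. It was 2.43, 2.23 and 1.5 CPM in batch 1 and 10.7, 13.4 and 7.22 CPM in batch 3 (2.35 ± 0.24, adjusted p = 2.28e-05, edgeR), with means of 2.01 and 9.46 CPM in WT and 1.53 and 8.64 CPM in MUT medium. The EV libraries of the 2 batches did not overlap. Since the vector was in the HEK293 cells, CEL mRNA in EndoC-βH1 cells does not check the labels.

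Markers of other cells differed between the batches in both directions. The 14 Schwann and neuronal markers summed to 806 to 851 CPM in batch 1, 986 to 996 CPM in batch 2 and 1227 to 1240 CPM in batch 3, and of 9 tested 6 rose and 1 fell (median 0.27, with 0.38 in WT and 0.28 in MUT). STMN2, MAP2 and TUBB3, a neuronal tubulin (0.52 ± 0.05), made up most of that rise, while SOX10, the defining factor of Schwann cells, was at 0 in both batches. The 16 acinar markers summed to 46.8 to 50.5 CPM in batch 1 and 37.9 to 43.7 CPM in batch 3, of which CPA1 gave 43.0 to 45.9 and 28.8 to 31.1 CPM. CEL is on this list too and rose, as given above, and of 3 acinar markers tested 1 rose and 1 fell. The 10 endothelial markers summed to 4.48 to 6.05 and 3.38 to 3.73 CPM, and the 13 stellate and fibroblast markers to 29.8 to 31.1 and 20.3 to 21.6 CPM. The 12 immune markers summed to 34.5 to 39.7 and 51.1 to 52.8 CPM, of which CD68, a lysosomal protein, gave 32.9 to 38.6 and 49.8 to 51.5 CPM, and CD3D, CD3E, MS4A1 and TYROBP were at 0 in both. The 15 HEK293 markers summed to 219 to 233 and 228 to 233 CPM, and 8 of them were tested, of which 3 rose and 1 fell. The share that passed, 50.0%, was near the 49.2% of all genes tested. The 12 ductal markers summed to 109 to 113 and 90.5 to 95.4 CPM. Of 6 tested 4 fell, all by more than 1.5-fold and led by TFF1, and 1, the keratin KRT19 (0.29 ± 0.05), rose (median -0.84, with -0.74 in WT and -0.38 in MUT). The part of other cells in the differences between the batches was not tested.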

How the data were processed

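The table the authors deposited holds estimated counts for 29 libraries, without normalization, in 66025 entries by Ensembl gene, of which 59599 had a symbol. Per the submitters' processing notes reads were handled with fastp and kallisto, which assigns reads to transcripts by estimation, so near-identical genes are uncertain. Versions, build, annotation and how transcripts were summed: not given in the sources used here. Among 22417 entries with a mean of at least 5 estimated counts in EV libraries, 1025 held the same values as another entry.

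Estimated counts were rounded to whole numbers. For the EV comparison the 6 libraries were fitted alone, with filterByExpr (minimum count 10), TMM scaling and the quasi-likelihood test of edgeR 4.0.16 (R 4.3.3, with limma 3.58.1), which leaves 4 residual degrees of freedom. WT and MUT libraries of batches 1 and 3 were fitted in the same way, and the difference between media in 1 fit of 20 libraries. Printed CPM were scaled by TMM over all 29 libraries. Libraries of a group differed beyond sampling noise, by a chi-square of 3.81 to 11.8 per gene in these EV libraries, and none was a copy. EV library 2 of batch 1 carries a sample number out of sequence and was used as labelled. Symbols and coordinates came from GENCODE release 29 by Ensembl identifier, and the authors' build may differ. Upstream sequences came from RefSeq, where 6 of the 6 genes printed matched.

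The libraries compared, the gene lists and the rule for named genes were chosen with earlier results of these data known. The rule allowed a short set of β-cell, stress and division genes, the 15 highest and 15 lowest changes among passing genes with a mean of at least 5 CPM and no overlap between batches, the 6 largest changes in CPM each way, and per list up to 4 passing genes with the smallest p and up to 2 others. From these the text names a selection made after their values were seen. UCN3, PCSK1, SCG5, MLXIPL, ARRDC4, PDK4, SQLE, SMAD6, TGFB1, DUSP6, DUSP5, CALR and VIM are list members outside the rule, added after their values were seen. Lists are described by counts and medians only. Alternatives were DESeq2 1.42.0, other scalings and filters, voom, a minimum fold, a replicate block, GC and length offsets, wider fits and leaving out each library.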

Additional observations from a re-analysis of the deposited data

How the results depend on the processing

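The EV count of 9993 genes ranged from 8211 to 10506 over the alternatives other than the test against a fold of 1.2, where it was 4122 (WT 3687 and MUT 3379). Leaving out 1 library gave 8633 to 9840 genes in EV, 7778 to 8875 in WT and 6649 to 8915 in MUT medium. The count of 0 genes for the difference between EV and the CEL media was not stable: it was 342 with DESeq2, 1798 with limma voom with quality weights, 104 without a low-count filter, 75 with all 29 libraries, 14 with total library size only and 9 with GC content and length offsets, and 0 to 318 without 1 library, the highest without WT batch 3 library 1. The cause was not tested. With 3 libraries a group the EV test had 4 residual degrees of freedom.

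Of 136 named genes, 123 passed, and over 18 alternatives 2375 of 2443 values kept their direction and call, 38 lost the call, which concerned 6 genes (INS, NKX6-1, ABCC8, KCNJ11, TOP2A and KRT19), and 13 gained it. ABCC8 turned from -0.14 to 0.066 with GC content and length offsets. The log2 fold changes had a Spearman correlation across genes with GC content of -0.263 in EV, -0.203 in WT and 0.0697 in MUT medium. Of 54 list medians, 922 of 971 values moved by less than 0.1. The α-cell marker median (0.129) ran from -0.095 to 0.288 when 1 library was left out, lowest without EV batch 3 library 3, and the extracellular matrix median turned to 0.024 with GC content and length offsets.

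The EV groups share the replicate numbers 2 and 3, whose deviations correlated at 0.0303 and 0.0365 between batches 1 and 3. The WT and MUT groups share 1, 2 and 3, with correlations of 0.00929 to 0.0634 in WT and -0.0175 to 0.0332 in MUT. EV pairs with unlike numbers correlated at -0.00143 (batch 1 library 2 with batch 3 library 3) and -0.0245 (batch 1 library 3 with batch 3 library 2). All of these values are small, and whether libraries with the same number were handled together was not tested. With a replicate block 8211 genes passed in EV and 3 for the difference between media, and the WT and MUT counts were 8680 and 8546.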
